A study of Homo sapiens with 12 samples.

Results

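Keratins are the intermediate filament proteins of epithelial cells, and 10 of the 26485 listed genes are described here, namely the keratins that breast pathology uses to separate luminal from basal epithelium, with 2 further type II keratins. The luminal members are KRT7, KRT8, KRT18 and KRT19. The basal members are KRT5, KRT14, KRT15 and KRT17, and the further members are KRT80 and KRT81. The choice was by name, though earlier results of these data were known when it was made. BT474 is an established line of HER2-positive breast cancer. Lapatinib blocks the kinase activity of HER2 and of EGFR. Poly(A) RNA was sequenced from 4 groups of 3 libraries each, namely Control cells (day 0), drug-tolerant persisters (DTP, day 9), drug-tolerant expanded persisters (DTEP, month 6) and long-term resistant cells (LR, month 9). The DTP, DTEP and LR cells were kept in 1 µM lapatinib. The Control libraries carry the same treatment label and were taken to be untreated, since their titles give day 0 and Control. All 4 groups derive from 1 cell line, and the libraries of a group are described by the authors as technical replicates and also as parallel plates, so SDs and p-values cover the spread between these libraries, which may be technical.

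A keratin filament is built from pairs of a type I and a type II keratin, so that neither type alone makes a filament. KRT8 (type II) and KRT18 (type I) form the standard pair of simple and luminal epithelium, together with KRT7 (type II) and KRT19 (type I). KRT5 (type II) and KRT14 (type I) form the pair of basal and myoepithelial cells, and KRT15 and KRT17 are type I keratins of basal and stem cell compartments. KRT80 is a type II keratin of many epithelia, and KRT81 is a hair keratin that some breast cancers express.

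Values are the deposited normalised read counts (CPM with a trimmed-mean scaling factor per library). The libraries held 16383363 to 25030482 assigned reads, so that a read counted for 0.0412 to 0.0576 normalised read counts, and a gene without a read in a library could lie as high as 3 reads, or 0.124 to 0.173. These limits cover counting error only. Within a group, Pearson's r between libraries across genes was 0.997 to 0.998 in Control cells, 0.983 to 0.996 in DTP cells, 0.934 to 0.982 in DTEP cells and 0.971 to 0.984 in LR cells. DTEP replicate 3 stood apart from its group, with an r of 0.934 to 0.962 to the other DTEP libraries and of 0.971 to 0.986 to the LR libraries, and calls of keratins that changed when it was left out are also given without it. ERBB2, the gene of HER2, averaged 6526 ± 266 (SD, n = 3) normalised read counts in Control cells, 8545 ± 611 in DTP cells, 1627 ± 437 in DTEP cells and 1774 ± 190.1 in LR cells.

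The luminal keratins were expressed in every library, and their level was highest in DTP cells. KRT18, the type I partner of KRT8, had 651, 633 and 669 normalised read counts in Control replicates 1 to 3, 1271, 1192 and 995 in DTP, 731, 489.6 and 368 in DTEP and 383, 519 and 377 in LR libraries. All DTP libraries lay above all others, while the DTEP and LR libraries overlapped. KRT8 had 989, 936 and 1036 in Control cells, 1692, 1522 and 1226 in DTP cells, 517, 286 and 269 in DTEP cells and 295, 503 and 256 in LR cells. Here the DTEP and LR libraries all lay below the Control libraries. KRT7, the other type II member of glandular epithelia, had 864, 839.7 and 918 in Control cells, 1535, 1402 and 1095 in DTP cells, 639, 416 and 411 in DTEP cells and 397, 384 and 257 in LR cells. KRT19, a type I keratin of ductal epithelia, had 1114, 1066 and 1185 in Control cells, 1955, 1726 and 1284 in DTP cells, 1365, 739 and 490.3 in DTEP cells and 407, 631 and 293 in LR cells. Of the luminal keratins only KRT19 had a DTEP library, replicate 1, that reached into the range of the DTP libraries.

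KRT15 and KRT80 were expressed at a lower level and changed by a wider range. KRT15, the basal member that passed the filter, had 58.0, 55.6 and 55.6 normalised read counts in Control cells, 172, 163 and 141 in DTP cells, 25.3, 10.2 and 0.561 in DTEP cells and 0.127, 1.16 and 0.145 in LR cells. LR replicates 1 and 3 held 3 reads each, which is no more than the limit for a gene without a read, and LR replicate 2 held 21 reads. KRT80 had 70.6, 73.6 and 70.5 in Control cells, 154, 150.5 and 146 in DTP cells, 34.3, 16.1 and 2.75 in DTEP cells and 5.75, 14.7 and 10.2 in LR cells. For both genes the DTP libraries were the highest, and DTEP replicate 3 was the lowest of its group. The mean of the DTP libraries was 331 times that of the LR libraries for KRT15 and 14.7 times for KRT80, against 2.70 times for KRT18, 3.73 times for KRT19, 3.88 times for KRT7 and 4.22 times for KRT8. Without LR replicate 2 the ratio of KRT15 was 1165, and without LR replicate 1 it was 242.

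**Figure D1:**
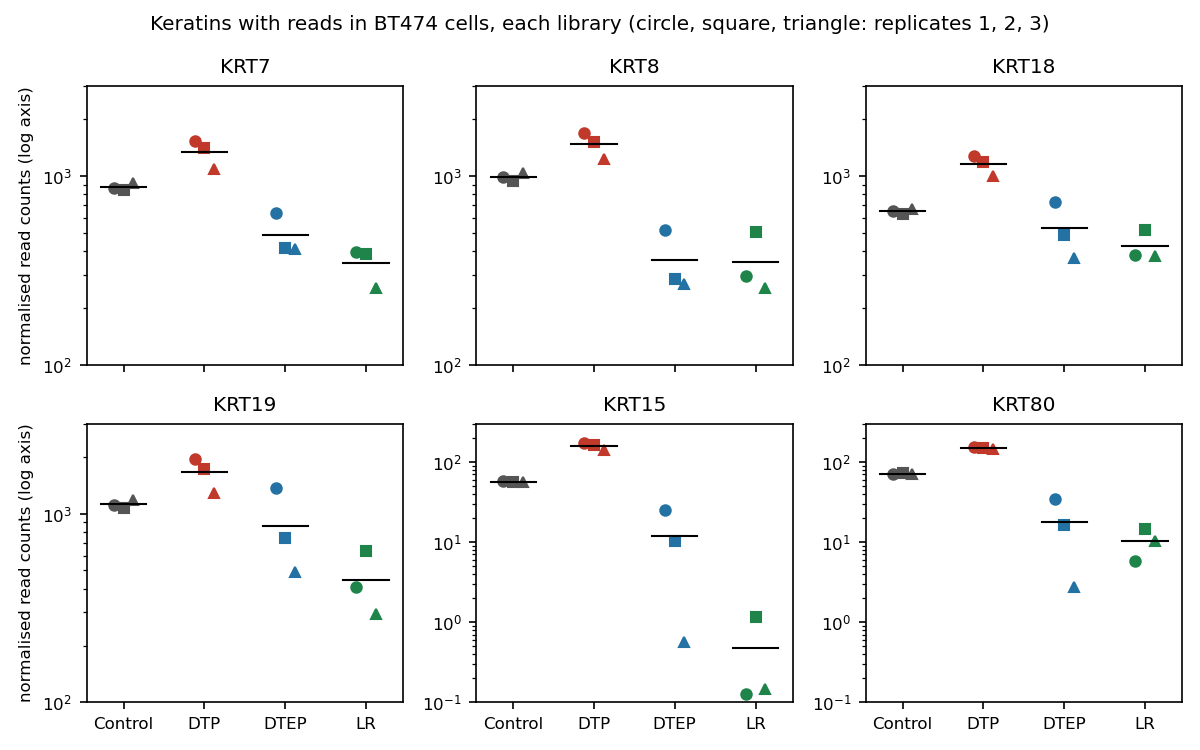
Normalised read counts (log axes, whose ranges differ between panels) of the 6 keratins that were tested, in each of the 12 libraries, with circles, squares and triangles for replicates 1, 2 and 3 and a line at the group mean. DTP libraries are the highest in each panel, except that DTEP replicate 1 exceeds DTP replicate 3 for KRT19, and KRT15 is at 141 or more in DTP and at 1.16 or less in LR libraries.

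The order of the libraries within DTP and within DTEP was the same for all of these keratins. In DTP and in DTEP, replicate 1 had the highest and replicate 3 the lowest level of each of the 6 genes. In LR, by contrast, replicate 2 was highest for KRT8, KRT18, KRT19, KRT15 and KRT80, and replicate 1 for KRT7.

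The remaining members were at or near the detection limit in every group. KRT5 had 3 reads over all 12 libraries, 1 in DTEP replicate 2 and 2 in LR replicate 3. KRT14, its basal partner, had 2 reads in all, 1 each in Control replicate 1 and DTP replicate 3. The pair that defines basal breast epithelium was therefore within the limit of 3 reads in all 12 libraries. KRT17, a basal keratin of injured and proliferating epidermis, had 27 reads in all, with 5, 6 and 0 in Control cells, 0, 2 and 2 in DTP cells, 6, 0 and 0 in DTEP cells and 1, 0 and 5 in LR cells. KRT81 had 17 reads in all, with 1, 0 and 4 in Control cells, 0, 5 and 0 in DTP cells, 5, 1 and 0 in DTEP cells and 0, 1 and 0 in LR cells. The groups overlapped for both genes, and no difference was detectable at this depth. These 4 genes did not reach the filter of a value of 1 in at least 3 libraries and were not tested.

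**Figure D2:**
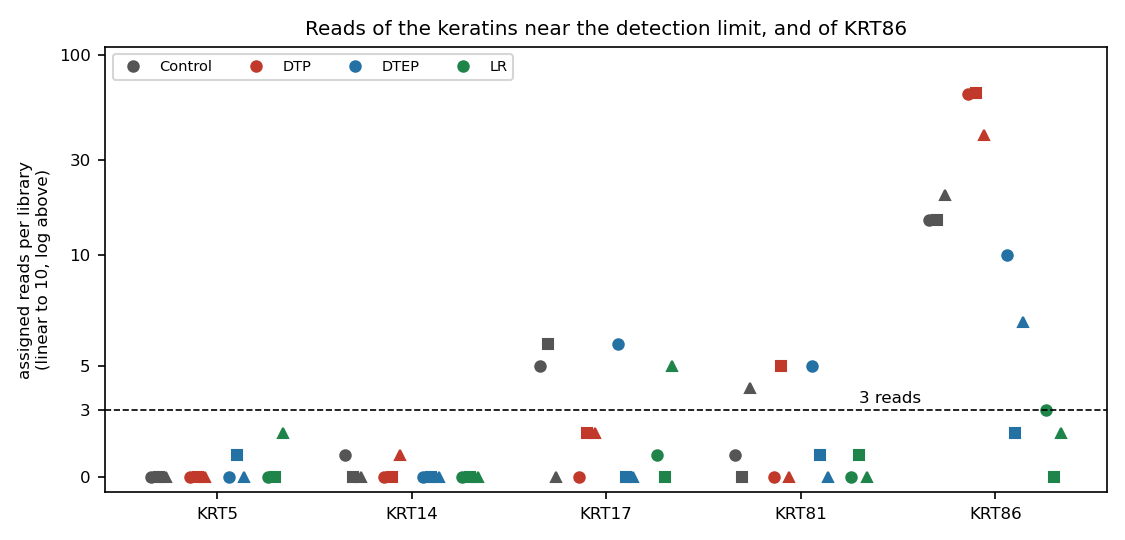
Assigned reads per library (linear to 10, logarithmic above) of the 4 keratins that were not tested, and of KRT86, with circles, squares and triangles for replicates 1, 2 and 3 and a dashed line at 3 reads. KRT5 and KRT14 stay under the line in all 12 libraries and KRT17 and KRT81 do not exceed 6 reads, while KRT86 is highest in DTP.

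Close copies bear on how the reads of these members were assigned. KRT81 lies wholly inside the RefSeq span of KRT86, a neighbouring hair keratin on the other strand, over 5622 bases, and 44.6% of the words of 50 bases in its main transcript also occur in transcripts of other genes, 38.4% in those of KRT86. The coding sequences of KRT81 and KRT86 were 94.2% identical with a longest identical run of 605 bases, and those of KRT81 and KRT83, a further hair keratin, were 93.4% identical. KRT14 shared 24.2% of its words with other genes, 11.3% with KRT16, to which its coding sequence was 88.7% identical, and it was 85.4% identical to that of KRT17. The stretches printed here, 60 coding bases each from coding exon 1 (GENCODE 44 on GRCh38), show what a short read would have to tell apart. They stand 5′ to 3′ on the coding strand, and capitals mark bases that differ from KRT81 in the hair keratin set and from KRT14 in the basal set.
KRT81 at chr12:52291106-52291165, minus strand: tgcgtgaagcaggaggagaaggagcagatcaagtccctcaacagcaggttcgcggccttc
KRT86 at chr12:52302217-52302276, plus strand: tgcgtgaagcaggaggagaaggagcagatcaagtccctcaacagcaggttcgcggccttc
KRT83 at chr12:52320961-52321020, minus strand: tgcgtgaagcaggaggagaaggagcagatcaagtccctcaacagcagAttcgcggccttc
KRT14 at chr17:41586475-41586534, minus strand: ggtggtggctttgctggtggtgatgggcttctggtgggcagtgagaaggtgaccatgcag
KRT16 at chr17:41612323-41612382, minus strand: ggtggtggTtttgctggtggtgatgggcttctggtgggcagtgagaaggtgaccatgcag
KRT17 at chr17:41624243-41624302, minus strand: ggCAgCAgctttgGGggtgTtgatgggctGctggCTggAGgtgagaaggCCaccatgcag

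Over these 60 bases KRT86 was identical to KRT81, KRT83 matched it at 59 bases, KRT16 matched KRT14 at 59 bases and KRT17 at 46. The counting ignored strand by default, so reads could be lost where exons of KRT81 and KRT86 overlap, which was not checked. A read from an identical stretch could be counted for either gene. The level of KRT81 is therefore uncertain. KRT86 itself had 0.690, 0.815 and 0.932 normalised read counts in Control cells, 3.34, 3.21 and 2.30 in DTP cells, 0.478, 0.0824 and 0.393 in DTEP cells and 0.127, 0 and 0.0969 in LR cells. Its DTP libraries were the highest. Among the expressed members, KRT8 shared 39.2% and KRT18 35.3% of their words with other genes, most of any single gene with the processed pseudogenes KRT8P3 and KRT18P11, so reads of both can have been given to a pseudogene. The spans of KRT8 and KRT18 also overlap by 1006 bases on opposite strands. KRT7, KRT19, KRT15 and KRT80 shared 0.418% to 1.79% of their words. Of the members near the detection limit, KRT17 shared 17.4% of its words, at most 9.54% with any single gene, and KRT5 shared 4.52%.

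The first comparison asked how the keratins differed in the persister state after 9 days of lapatinib. All 6 tested keratins were higher in every DTP than in every Control library, which was the case for 37.7% of the 13794 genes tested. In the limma fit over all 12 libraries, upregulation upon the control-DTP transition passed the adjusted p for KRT18, with a log2 change of 0.82 (SE 0.23, adjusted p = 0.0092), and for KRT7, with 0.61 (SE 0.22, adjusted p = 0.034). KRT7 missed it, at limma adjusted p of 0.0633 to 0.125, when any one Control library or DTP replicate 1 or 2 was left out. KRT15 had the highest estimate, 1.47, but its 95% interval ran from -0.13 to 3.07 (limma adjusted p = 0.11), and the estimates of KRT80, KRT8 and KRT19 were 1.06, 0.57 and 0.54 with limma adjusted p from 0.103 to 0.209. None of the 6 was called, that is, none met the adjusted p of 0.05 together with a log2 change of more than 2 in size, where 1.01% of all genes were called higher and 25.2% were higher at the adjusted p alone. The fold of the group means was 2.81 for KRT15, 2.10 for KRT80, 1.77 for KRT18, 1.54 for KRT7, 1.5 for KRT8 and 1.48 for KRT19.

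The result of this comparison depended on which libraries set the spread. The SE of KRT15 was 0.73 with all 12 libraries and 0.087 in a limma fit to the 6 Control and DTP libraries alone, and that of KRT80 was 0.60 and 0.058. In the fit to these 6 libraries all 6 keratins were higher at an adjusted p between 1.1e-05, for KRT80, and 0.0143, for KRT19, as were 35.4% of all genes.

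The second comparison asked how the keratins differed once the cells had resumed growth. Downregulation upon the DTP-DTEP transition passed the adjusted p for all 6 tested keratins, against 32.6% of all genes that were lower, and 3 keratins were called lower, against 7.02% of all genes. The called keratins were KRT15, with a log2 change of -4.36 (SE 0.73, adjusted p = 0.00021) and a group mean 13.2-fold lower, KRT80, with -3.52 (SE 0.60, adjusted p = 0.000228) and 8.47-fold lower, and KRT8, with -2.10 (SE 0.28, adjusted p = 3.25e-05) and 4.14-fold lower, all by limma. The other luminal keratins fell with log2 changes of -1.48 for KRT7 (SE 0.22), -1.17 for KRT18 (SE 0.23) and -1.04 for KRT19 (SE 0.35, limma adjusted p = 0.0184). For 5 of the 6 the groups did not overlap, as for 32.8% of all genes that were lower, and KRT19 was the exception. The median log2 change was -1.79 over the 6 keratins and 0.08 over all genes tested. Without DTEP replicate 1 the fold of the means was 29.5 for KRT15 and 15.9 for KRT80. Without DTEP replicate 3 the log2 estimate of KRT15 was -3.21 and that of KRT80 -2.62, while KRT19 was then at -0.70 with a limma adjusted p of 0.0669. KRT8 was no longer called without DTEP replicate 3 (-1.93), DTEP replicate 2 (-1.97) or DTP replicate 1 (-1.998), which left 2 called keratins, KRT15 and KRT80, although KRT8 kept an adjusted p of 0.000309 or less by limma in each case.

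The third comparison covered the 3 months between DTEP and LR cells. No keratin was called or passed the limma adjusted p upon the DTEP-LR transition, where 0.457% of all genes were called lower and 4.31% were lower at the adjusted p alone. KRT15 was nearest, with a log2 change of -2.45 (95% interval -4.05 to -0.85, limma adjusted p = 0.0574), and KRT19 followed with -0.90 (-1.66 to -0.15, limma adjusted p = 0.0964). KRT8 was at -0.02 with an interval from -0.63 to 0.59, so that a change of that size either way was within its error. KRT7 was at -0.49, KRT80 at -0.31 and KRT18 at -0.27, and KRT7 alone was lower in every LR than in every DTEP library, as were 13.4% of all genes. This comparison rested on DTEP replicate 3. Without it 5 of the 6 keratins, all but KRT8, were lower in LR at the limma adjusted p, and KRT15, at -3.61, was called. The share of all genes lower in that fit was not taken, so this count has no baseline. KRT15 was also called with edgeR (-4.65, adjusted p = 0.0198), with DESeq2 (-4.60, adjusted p = 0.000621) and with a pseudocount of 0.1 in limma (-3.75, adjusted p = 0.0458).

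Set against Control, DTEP and LR cells had lower levels of most of the expressed keratins. In DTEP, 4 of the 6 were lower at the limma adjusted p, as were 28.7% of all genes, with log2 changes of -2.90 for KRT15 (SE 0.73, adjusted p = 0.00487), -2.46 for KRT80 (SE 0.60, adjusted p = 0.00374), -1.53 for KRT8 (SE 0.28, adjusted p = 0.000532) and -0.87 for KRT7 (SE 0.22, adjusted p = 0.00473). KRT18 and KRT19, both type I, were at -0.35 and -0.50 with limma adjusted p of 0.198 and 0.235. KRT15 and KRT80 were called lower, against 6.20% of all genes, and neither was called without DTEP replicate 3, where their estimates were -1.74 and -1.56.

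In LR, all 6 keratins were lower at the limma adjusted p, as were 32.6% of all genes, and their groups did not overlap with Control, as for 39.4% of all genes that were lower. KRT15, with a log2 change of -5.35 (SE 0.73, adjusted p = 4.94e-05), and KRT80, with -2.78 (SE 0.60, adjusted p = 0.00153), were called lower by limma, against 7.80% of all genes. KRT8 was at -1.55 (SE 0.28), KRT19 at -1.41 (SE 0.35), KRT7 at -1.36 (SE 0.22) and KRT18 at -0.62 (SE 0.23, limma adjusted p = 0.0291). The group mean of KRT15 was 118-fold lower than in Control on the scale of the values, and 415-fold without LR replicate 2, which held most of its LR reads. Because 1 is added before the logarithm, the log2 change understates that of a gene with so few reads. The luminal keratins were 1.53-fold (KRT18) to 2.81-fold (KRT8) lower. The Control libraries are shared between the comparisons with DTP, DTEP and LR, so these are not independent of each other. In bulk RNA, fewer cells with a transcript and less of it per cell cannot be told apart.

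**Figure D3:**
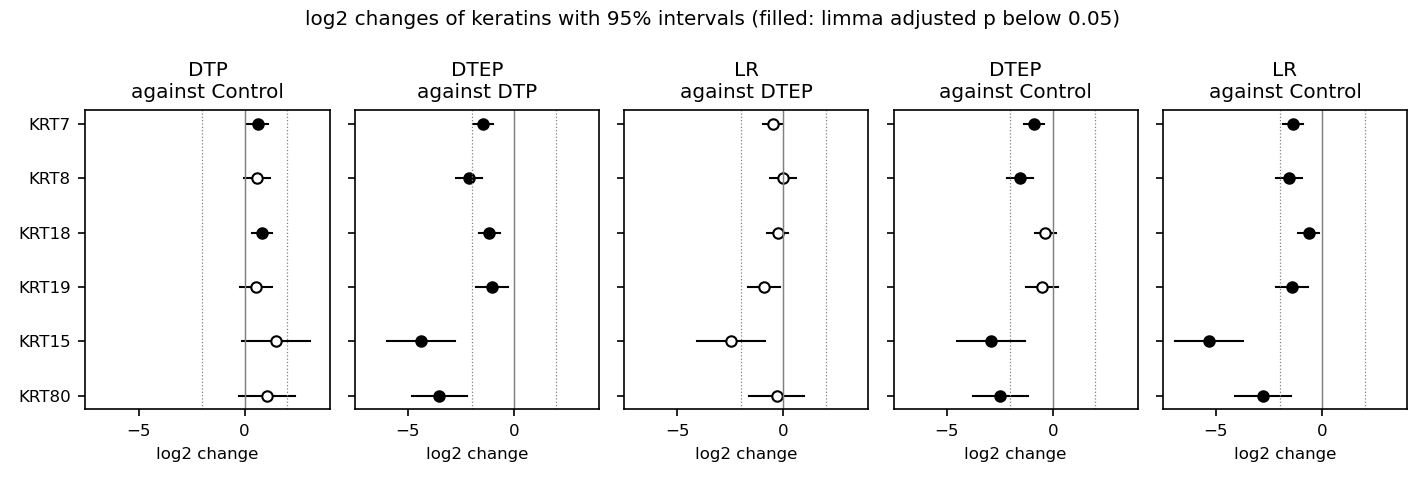
log2 change (of the value with 1 added) of the 6 tested keratins in 5 comparisons, with the 95% interval from the limma fit over 12 libraries, filled circles for an adjusted p below 0.05 and dotted lines at the threshold of 2 either way. All 6 points lie above 0 for DTP against Control and below 0 for DTEP against DTP, and those of KRT15 and KRT80 lie farthest to the left for LR against Control, at -5.35 and -2.78.

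Levels of different keratins were compared per kilobase of the main transcript (1390 bases for KRT19 to 3873 for KRT80). In Control the order was KRT19 at 807 ± 43.1 normalised read counts per kilobase (SD, n = 3), KRT8 at 553 ± 28.2, KRT7 at 538 ± 24.8, KRT18 at 461 ± 12.8, KRT15 at 32.9 ± 0.828 and KRT80 at 18.5 ± 0.454. KRT8 and KRT7 overlapped between libraries, although KRT8 was above KRT7 within each Control library. The other neighbours differed beyond their spread. In DTP, KRT8 at 829.6 ± 132, KRT7 at 827 ± 139 and KRT18 at 816 ± 101 per kilobase were level. KRT19, at 1191 ± 245, was above them within each DTP library, although its range over the libraries overlapped theirs. KRT15, at 92.5 ± 9.48, and KRT80, at 38.8 ± 1.1, lay below. In DTEP the order was KRT19, at 622 ± 324 per kilobase, KRT18, at 375 ± 131, KRT7, at 300.7 ± 80.1, and KRT8, at 200.2 ± 77.7. This order held within each DTEP library, although neighbours in it overlapped between libraries. In LR, KRT19 at 319 ± 124 and KRT18 at 302 ± 56.9 per kilobase were level, as were KRT7 at 213 ± 47.8 and KRT8 at 197 ± 74.3, and KRT80 at 2.63 ± 1.15 stood above KRT15 at 0.279 ± 0.346.

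The balance of the types was taken from the same levels. The summed type II level over the summed type I level, both per kilobase, was 0.853 ± 0.00366 in Control cells, 0.809 ± 0.00785 in DTP cells, 0.530 ± 0.112 in DTEP cells and 0.667 ± 0.0538 in LR cells. Every DTP, DTEP and LR library had a lower ratio than every Control library, while LR and DTEP overlapped through DTEP replicate 3, at 0.659 against 0.457 and 0.475 for the other DTEP libraries. Each of the 4 comparisons without overlap gave p = 0.1 in an exact two-sided permutation test, the smallest that 3 against 3 libraries allow, and LR against DTEP gave an exact p of 0.3, which after Benjamini-Hochberg adjustment over the 5 comparisons became 0.125 and 0.3. The sum of all 10 members was 2410.4 ± 108 per kilobase in Control cells, 3795 ± 628 in DTP cells, 1509.7 ± 620.3 in DTEP cells and 1034 ± 286 in LR cells.

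Within that sum KRT8 held 23.0% ± 0.195 in Control cells, 21.9% ± 0.212 in DTP cells, 13.4% ± 1.28 in DTEP cells and 18.8% ± 2.04 in LR cells. The share of KRT18 was 19.1% ± 0.327, 21.6% ± 0.972, 25.2% ± 1.59 and 29.7% ± 3.8 in the same order. That of KRT15 was 1.37% ± 0.0702, 2.46% ± 0.166, 0.386% ± 0.325 and 0.0230% ± 0.0239. The luminal keratins together held 97.9% in Control cells, 96.5% in DTP cells, 99.3% in DTEP cells and 99.7% in LR cells, so the sum was luminal throughout. The ratio of KRT8 to its partner KRT18, within each library and not divided by length, was 1.52 ± 0.0353 in Control cells, 1.28 ± 0.0498 in DTP cells, 0.674 ± 0.0786 in DTEP cells and 0.806 ± 0.148 in LR cells. Its highest value in DTEP and LR, 0.968 in LR replicate 2, was below its lowest in DTP.

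**Figure D4:**
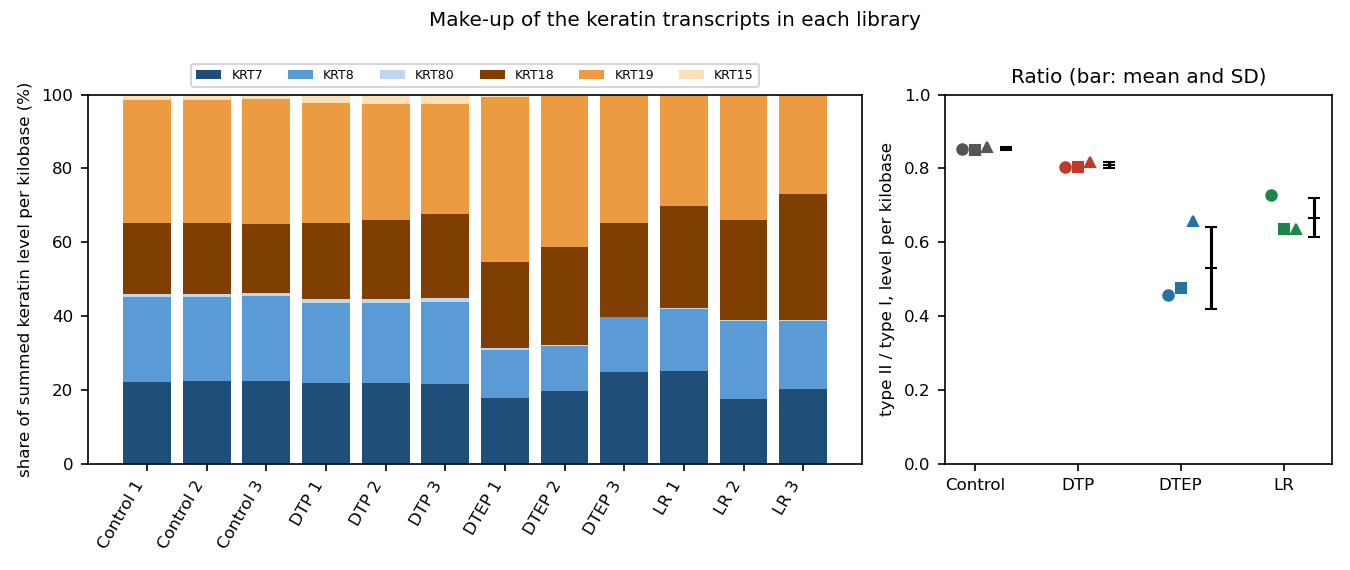
Left, the share (%) of each keratin in the summed level per kilobase of the 10 members in each library, with type II keratins in blue and type I in brown; right, the type II over type I ratio per library (circles, squares and triangles for replicates 1, 2 and 3) with the group mean and SD as bars. The blue part is smallest in DTEP replicates 1 and 2, where the ratio is 0.457 and 0.475 against 0.850 to 0.857 in Control libraries.

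The 10 members made up 97.9% to 99.2% of all keratin values in every library. Of 46 other keratin genes in the table, 13 had no read, 32 (those included) never had more than 3 reads in a library, and 7 were tested. Upon the control-DTP transition 5 of the 7 were higher at the limma adjusted p, namely KRT4, KRT10, KRT13, KRT83 and KRT86, and KRT2 was lower, where 25.2% of all genes were higher and 28.8% lower. Upon the DTP-DTEP transition the same 5 were lower and KRT23 was higher, where 32.6% of all genes were lower and 35.7% higher. KRT13, KRT83 and KRT86 reached the filter only with their DTP libraries and KRT2 only with its Control libraries. KRT23 did so only with DTEP and LR libraries. Being tested thus largely set the direction of these genes in the counts, which are no test of it. KRT4, a type II keratin of stratified mucosa, had 11.7, 11.4 and 13.3 normalised read counts in Control cells, 41.1, 39.1 and 35.1 in DTP cells, 1.67, 0.700 and 0.954 in DTEP cells and 0.380, 0.277 and 0.533 in LR cells, with a called log2 change of -4.25 (SE 0.19, limma adjusted p = 5.94e-09) from DTP to DTEP. KRT23, a type I keratin, went the opposite way. It had 0, 0.0544 and 0.0466 in Control cells, 0, 0.0987 and 0.288 in DTP cells, 15.6, 4.04 and 2.58 in DTEP cells and 5.45, 2.77 and 15.4 in LR cells, a called log2 change of 2.58 (SE 0.54, limma adjusted p = 0.00115) from DTP to DTEP. The other 5 tested keratins were named after their values were seen.

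Keratin filaments are anchored at desmosomes, which join neighbouring cells, and at hemidesmosomes, which join cells to the basement membrane. Of 17 listed genes of these junctions and of the plakin linkers 15 were tested. Upon the control-DTP transition 1 was called lower, against 3.90% of all genes, and 1 was higher and 8 were lower at the limma adjusted p, against 25.2% and 28.8% of all genes. Upon the DTP-DTEP transition 1 was called higher and 3 lower, against 8.13% and 7.02% of all genes, and 5 were higher and 7 lower at the limma adjusted p, against 35.7% and 32.6%. The call in DTP and the call of a higher level in DTEP were both ITGA6, the integrin subunit of hemidesmosomes, with 55.3 ± 1.84 normalised read counts in Control cells, 11 ± 3.32 in DTP cells, 349.96 ± 72.6 in DTEP cells and 383 ± 91.4 in LR cells. Its log2 change was -2.26 (SE 0.23) and then 4.88 (SE 0.23, limma adjusted p = 8.84e-09), opposite in sign to those of the keratins. PKP1, a desmosomal plaque protein, fell at both steps, from 61.5 ± 2.35 in Control to 30.1 ± 1.07 in DTP and 2.11 ± 2.07 in DTEP, with log2 changes of -1.01 and -3.54 (SE 0.36). DSP and PKP2, further plaque proteins named after their values were seen, were also called lower in DTEP than in DTP, at -2.52 and -2.61.

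JUP (plakoglobin), named after its values were seen, was the anchor higher in DTP at the limma adjusted p. It averaged 518 ± 24.7 normalised read counts in Control cells, 1084 ± 142 in DTP cells, 279 ± 60.6 in DTEP cells and 258 ± 42.3 in LR cells, with log2 changes of 1.06 (SE 0.18, limma adjusted p = 0.000394) upon the control-DTP and -1.97 upon the DTP-DTEP transition. DSP, which links keratins to the desmosome, averaged 948 ± 22.0, 488 ± 115, 87.7 ± 32.4 and 67.9 ± 53.1 in the 4 groups. Its LR replicates 1 to 3 had 99.7, 97.5 and 6.64. Its log2 change of -0.98 in DTP against Control did not pass (limma adjusted p = 0.295).

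Markers of other cell states were counted beside the keratins. Of 12 luminal epithelial markers all were tested, and upon the DTP-DTEP transition 0 were called higher and 4 lower (CDH1, MUC1 and ESR1, named after their values were seen, and PGR), against 8.13% and 7.02% of all genes, while 5 were higher (EPCAM, GATA3, FOXA1, SPDEF and CLDN3, by 0.78 for CLDN3 to 1.79 for SPDEF) and 6 lower at the limma adjusted p, against 35.7% and 32.6%. These 5 were also named after their values were seen. GATA3, a luminal transcription factor, averaged 190.3 ± 7.64 normalised read counts in Control cells, 454 ± 5.73 in DTP cells, 1159 ± 192 in DTEP cells and 1251 ± 331 in LR cells, and was called higher by limma in DTEP and in LR against Control, at 2.59 and 2.68. PGR, the progesterone receptor, averaged 1179 ± 135 normalised read counts in Control cells, 909 ± 200.2 in DTP cells, 73.0 ± 68.5 in DTEP cells and 2.45 ± 1.90 in LR cells, and was called lower at the later steps by limma, by -4.20 and -4.03. The summed level of this list was 3896 to 4075 in Control cells, 3557 to 3912 in DTP cells, 3104 to 3441 in DTEP cells and 2531 to 3676 in LR cells.

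Of 12 basal or myoepithelial markers 8 were tested, of which 1 was called higher and 1 lower upon the DTP-DTEP transition, against 8.13% and 7.02% of all genes, and 1 was higher and 5 lower at the limma adjusted p, against 35.7% and 32.6%. TP63, the p63 factor of basal epithelium, had 4.94 ± 0.619 normalised read counts in Control cells, 0.785 ± 0.396 in DTP cells, 15.2 ± 12 in DTEP cells and 42.6 ± 24.8 in LR cells, with a called log2 change of 2.94 (SE 0.52, limma adjusted p = 0.000331) from DTP to DTEP. Upon the control-DTP transition 0 of the 8 were called higher and 1 lower, against 1.01% and 3.90% of all genes. At the limma adjusted p 2 were higher and 3 lower there, against 25.2% and 28.8%. The called gene was EGFR (-2.36, SE 0.30). The higher ones were TAGLN (1.47) and NGFR (0.65), named after their values were seen, and NGFR reached the filter only with its DTP libraries. CDH3, or P-cadherin, was called lower in DTEP against DTP (-2.26, SE 0.63). The basal keratins KRT5, KRT14 and KRT17 stayed near the detection limit in the same DTEP and LR libraries, and KRT15 was lower there. The summed level of the list was 80.5 to 84.4 in Control cells, 70.3 to 74.4 in DTP cells, 28.7 to 70.8 in DTEP cells and 62.3 to 152 in LR cells. The 152 was LR replicate 2, which had 65.6 for TP63 and 64.1 for MME, named after its values were seen. MME had 3.08 and 4.12 in LR replicates 1 and 3.

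Of 8 squamous differentiation markers 4 were tested, and 1 was called higher and 1 lower upon the DTP-DTEP transition, against 8.13% and 7.02% of all genes. Upon the control-DTP transition 1 was called higher and 0 lower, against 1.01% and 3.90% of all genes. At the limma adjusted p 1 was higher and 1 lower there, against 25.2% and 28.8%. TGM1, a transglutaminase of the cornified envelope, was called higher in DTP (2.16, SE 0.25) and lower in DTEP (-2.53). Its means were 2.94, 16.6, 2.09 and 1.52 normalised read counts in the 4 groups. SFN (14-3-3 sigma) was lower in DTP (-1.90, limma adjusted p = 0.00026) and called higher in DTEP (4.35, SE 0.30). Of 7 mesenchymal markers 6 were tested, and 0 were called higher and 2 lower upon the DTP-DTEP transition, against 8.13% and 7.02% of all genes. At the limma adjusted p 1 was higher and 4 lower, against 35.7% and 32.6% of all genes. The higher one was ZEB1, at 0.50 (limma adjusted p = 0.0148), which reached the filter only with LR libraries. CDH2 averaged 0.657 ± 0.432 in DTEP and 5.42 ± 3.47 in LR, higher by 1.83 (limma adjusted p = 0.0157). Both were named after their values were seen. Upon the control-DTP transition 1 mesenchymal marker was called higher and 0 lower, against 1.01% and 3.90% of all genes. At the limma adjusted p 2 were higher and 2 lower there, against 25.2% and 28.8%. The called gene was TWIST1, a mesenchymal transcription factor (2.76, SE 0.47). TWIST1 was then called lower in DTEP against DTP (-4.17) and had no read in any LR library. VIM is the intermediate filament protein of mesenchymal cells. It had 58.3 ± 0.999 in Control cells, 90.1 ± 6.98 in DTP, 4.82 ± 5.37 in DTEP and no read in any LR library. Its log2 change from DTP to DTEP was called, at -4.53 (SE 0.59, limma adjusted p = 2.64e-05). Lower keratin and lower vimentin transcript thus stood side by side in DTEP and LR libraries. Of 11 markers of fibroblasts, blood and vessel cells 7 never exceeded 3 reads, and the list summed to 59.4 to 70.4 in Control, 49.9 to 61.7 in DTP cells, 80.4 to 122 in DTEP cells and 98.7 to 131 in LR cells, with COL1A1 and VWF alone tested. Their part in the keratin results was not tested.

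The members sit in the 2 keratin clusters of the genome (RefSeq, GRCh38.p14). The type II members and KRT18 lie on chromosome 12 from KRT80 (start 52168996) to KRT18 (end 52952906), and the other type I members on chromosome 17 from KRT15 (start 41513745) to KRT17 (end 41624575). Within 500 kilobases of the chromosome 12 members lie 32 other genes, keratins and keratin-associated proteins left out, of which 21 were tested. Upon the DTP-DTEP transition 1 of them was called higher (ESPL1) and 1 lower (ITGB7), against 8.13% and 7.02% of all genes. Both were named after their values were seen. At the limma adjusted p 5 were higher and 6 lower, where 35.7% and 32.6% of all genes were. The median log2 change of the 21 was -0.06. The nearest tested genes were ATG101, 91.5 kilobases before the members, at -0.79 (limma adjusted p = 0.0133), and EIF4B, 53.5 kilobases after them, at 0.63 (limma adjusted p = 0.00868).

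On chromosome 17, 14 of 21 neighbours were tested. Upon the DTP-DTEP transition 10 of the 14 were lower and 3 higher at the limma adjusted p, where 32.6% and 35.7% of all genes were, and the median log2 change was -1.03. None of the 14 was called lower, and FKBP10, named after its values were seen, was called higher, by 6.11. Over all genes 7.02% were called lower and 8.13% higher. The nearest tested gene, EIF1, 64.3 kilobases after the members, was at -0.66 (limma adjusted p = 0.000756), and no tested gene lay before them within the window. JUP lies 130 kilobases after the members and is the anchor described above. In LR against Control the median of the neighbours was -0.71 on chromosome 17 and 0.19 on chromosome 12. Genes side by side on a chromosome are not independent of each other.

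**Figure D5:**
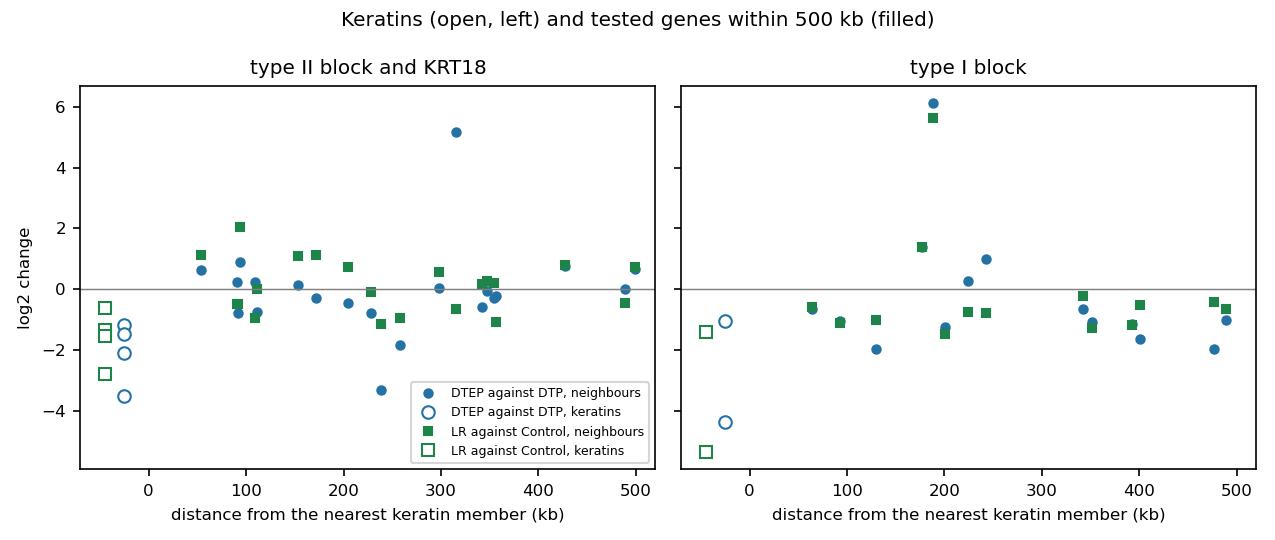
log2 change of the tested keratins (open symbols at the left, placed at no distance) and of the tested genes within 500 kilobases (filled) against the distance in kilobases from the nearest keratin member, for DTEP against DTP (circles) and LR against Control (squares). Neighbours on chromosome 12 lie on both sides of 0, with a median of -0.06 for DTEP against DTP, and most of those on chromosome 17 lie below 0, with a median of -1.03.

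The genes whose pattern over the 12 libraries was most like a called keratin were taken by the root-mean-square difference of log2 values, each gene centred on its own mean. For KRT15 these were PKIG, with a difference of 0.312, and PDLIM1, with 0.372, where KRT15 itself varied by 2.77 about its mean. PDLIM1 averaged 67.3 ± 0.769 normalised read counts in Control cells, 172 ± 15.2 in DTP cells, 15.0 ± 17.2 in DTEP cells and 0.0464 ± 0.0486 in LR cells. For KRT80 they were MIEN1, with 0.207, a gene next to ERBB2, and NRXN3, with 0.287, where KRT80 varied by 1.78. MIEN1 averaged 337 ± 7.52 in Control cells, 710.2 ± 116 in DTP cells, 84.6 ± 67.2 in DTEP cells and 47.9 ± 12.4 in LR cells. For KRT8 they were RPS6KA1, with 0.210, and TMEM189, with 0.214, where KRT8 varied by 0.987.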

How the data were processed

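The authors prepared stranded mRNA libraries, mapped the reads with Rsubread (hg38) and counted them over RefSeq genes with default settings, which ignore strand. The deposited table holds a normalised signal per gene and library, not counts. All 199680 values above 0 (100%) were whole multiples of 1 read within a tolerance of 1e-06, and scaling recomputed with edgeR 4.0.16 (TMM) matched in all 12 libraries, so whole reads were recovered.

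Only genes reaching a value of 1 in 3 or more libraries (13794) entered the test, made with limma 3.58.1 in R 4.3.3 on log2(value + 1), with a variance trend and all 12 libraries in 1 fit, two-sided, with Benjamini-Hochberg adjustment over genes within each of 5 comparisons. Calls needed an adjusted p under 0.05 with a log2 change beyond 2 either way. The recovered reads were also fitted with edgeR (quasi-likelihood) and with DESeq2 1.42.0. The fits were also run on simulated data with the same spread in every group, which does not stand for the wider DTEP and LR spread. Transcript lengths, coding sequences and shared words of 50 bases came from GENCODE 44.

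The keratins and gene lists were chosen with earlier results of these data known. Beside the 10 keratins, the called genes with the largest and smallest change of each list in each of the 3 transitions were named, with the nearest tested neighbour on each side and the 2 genes most alike. Genes named besides were chosen after their values were seen. Replicate numbers were not used to pair the libraries in the main fit.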

Additional observations from a re-analysis of the deposited data

How the results depend on the processing

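Over 690 estimates of the 6 tested keratins under the alternatives, 672 kept their direction and their side of the calling thresholds, 6 lost the call, 4 gained it and 8 reversed, the last all in LR against DTEP. There KRT8 (-0.02) was at 0.0174 with median-of-ratios scaling, 0.0462 with edgeR and 0.0232 with DESeq2, and lay between -0.31 and 0.28 when 1 library was dropped (0.277 without DTEP replicate 1, 0.173 without LR replicate 3, 0.0723 without LR replicate 1). KRT80 (-0.31) ran from -1.22 to 0.398, the latter without DTEP replicate 1, and was at 0.00961 without LR replicate 1. The count of keratins higher at the adjusted p upon the control-DTP transition (2) was 1 without the filter on low values, 6 with the 6 libraries compared and 1 to 4 with single libraries left out. It was 4 without DTEP replicate 1 or 3, and 1 without any one of the Control replicates or without DTP replicate 1 or 2. Called keratins in LR against DTEP (0) and those past the adjusted p (0) were 1 each with a pseudocount of 0.1, edgeR or DESeq2, KRT15 each time, and 0 to 1 and 0 to 5 with single libraries left out, both highest without DTEP replicate 3. In DTEP against Control 1 keratin was called with DESeq2 in place of 2, and 0 to 2 with single libraries left out, 0 without DTEP replicate 3. With an absolute log2 change above 1, 6 keratins were called in DTEP against DTP in place of 3, and 5 in LR against Control in place of 2. Of these alternatives, only the fit to the 6 Control and DTP libraries was set beside a share of all genes. The other counts have no baseline. Not divided by length, the type II over type I ratio was 1.06 in Control cells, 1.00 in DTP cells, 0.645 in DTEP cells and 0.816 in LR cells.

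Libraries with the same replicate number mostly did not deviate together. The correlation of their deviations ran from -0.441 to 0.359 and exceeded 0.1 in 2 of 18 pairs. These were DTP with DTEP, for replicate 1 (0.359) and for replicate 3 (0.335). A fit with the replicate number as a block left the counts of called keratins at 0, 3, 0, 2 and 2 in the 5 comparisons, in the order of the report.

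KRT18 in LR against Control lost the adjusted p with edgeR (0.0575) and without any one Control replicate or LR replicate 1 or 3, and KRT19 in DTEP against DTP lost it without DTP replicate 1 or 2 or DTEP replicate 2 or 3. KRT7 in DTP against Control had an adjusted p of 0.0551 without the filter and of 0.0633 to 0.125 without any one Control replicate or DTP replicate 1 or 2. Called keratins in DTEP against DTP were 2 to 3 with single libraries left out, 2 without DTP replicate 1 or DTEP replicate 2 or 3, where KRT8 was lost. Differences of KRT5, KRT14, KRT17 and KRT81 were beyond this depth.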
